A study of Rattus norvegicus with 18 samples.

Results

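The muscle alpha actins Actc1 (ENSRNOG00000008536), Acta1 (ENSRNOG00000017786) and Acta2 (ENSRNOG00000058039) were measured in the hearts of 18 male Wistar rats, each 3 weeks old. They are 3 of the 30560 genes in the deposited count table, and all 3 were among the 17009 genes that passed the low-count filter. They were chosen by name, not by their values, but with earlier results of these data known. Dams had received vehicle (7 offspring), cannabidiol at 3 mg/kg/day (CBD3, 6 offspring) or cannabidiol at 30 mg/kg/day (CBD30, 5 offspring) in gestation. Cannabidiol is a cannabis compound that does not intoxicate. The sources used here give neither the route of dosing nor which offspring shared a dam. Whole hearts were profiled by bulk RNA sequencing, so that fewer cells of a type and less RNA per cell cannot be told apart. Library totals were 44321480 to 80451013 counts for vehicle, 56992503 to 89240727 counts for CBD3 and 44127009 to 82220752 counts for CBD30 hearts. The pairing of these IDs with symbols was part of the choice of genes, and the reference table at hand holds no Ensembl ID with which to check it.

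Actin monomers polymerise into the thin filament, along which myosin heads pull during contraction. Actc1 encodes the cardiac alpha actin, the main sarcomeric actin of the adult heart muscle cell. Acta1 encodes the skeletal alpha actin, which is also made by heart muscle cells around birth and is a classical gene of the fetal programme that returns in the overloaded heart. Acta2 encodes the smooth muscle alpha actin of vessel walls, which is also made by embryonic heart muscle cells and by activated fibroblasts. The 3 proteins are nearly identical. Their coding sequences are similar, and how far reads from them can be told apart was not tested here. The sources used here do not say how reads that match more than 1 actin were counted, which makes the division of counts among the isoforms uncertain.

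All 3 genes are known targets of serum response factor, which binds a sequence called the CArG box in muscle gene promoters. The 250 bases before each gene's start are given for that reason, from RefSeq on build GRCr8. All 3 genes were matched by symbol and lie on the minus strand, and the sequences read 5′ to 3′ toward the start. Capitals mark the CArG box, or the same box with a single C or G in its A/T core. The windows are chr3:121271828-121272077 for Actc1, chr19:68784195-68784444 for Acta1 and chr1:241172504-241172753 for Acta2.
Actc1: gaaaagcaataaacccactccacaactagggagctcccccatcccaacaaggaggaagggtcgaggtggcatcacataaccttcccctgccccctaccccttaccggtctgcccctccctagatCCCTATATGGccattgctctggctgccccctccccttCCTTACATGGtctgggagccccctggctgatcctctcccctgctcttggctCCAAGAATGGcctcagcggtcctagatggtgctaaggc
Acta1: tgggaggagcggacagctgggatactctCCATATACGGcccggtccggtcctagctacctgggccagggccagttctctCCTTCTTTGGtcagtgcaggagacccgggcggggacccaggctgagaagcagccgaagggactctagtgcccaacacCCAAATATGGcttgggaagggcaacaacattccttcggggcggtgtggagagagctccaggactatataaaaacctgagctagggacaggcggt
Acta2: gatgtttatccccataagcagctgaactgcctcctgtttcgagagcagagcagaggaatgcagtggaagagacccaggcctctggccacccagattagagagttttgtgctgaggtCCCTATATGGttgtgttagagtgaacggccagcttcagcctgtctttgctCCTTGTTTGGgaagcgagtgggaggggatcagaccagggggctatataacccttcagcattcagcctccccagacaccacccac

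Acta1 was the only one of the 3 with an intact CArG box in this window, CCAAATATGG, from -94 to -85 relative to the start. It also held the altered form at -222 to -213 and at -171 to -162. Actc1 held the altered form at -126 to -117, -89 to -80 and -38 to -29. Acta2 held it at -134 to -125 and -84 to -75. The distal sequence of Acta2 and that of Actc1 were the same run, CCCTATATGG. Of 33469 rat promoter windows of the same length, 1.5% held an intact CArG box, 6.84% held the altered form and 8.08% held either. The box reads alike on both strands, and the search covered both. The motif TATAAA, searched on both strands and distinct from the CArG matches, was found at -29 to -24 in Acta1 and in 12.9% of all windows. This exact string was not in the Actc1 and Acta2 windows. Looser forms were not searched, and the Acta2 window holds the similar run TATATAA. These matches describe letters in a window set by the RefSeq start, and no binding was measured.

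**Figure D1:**
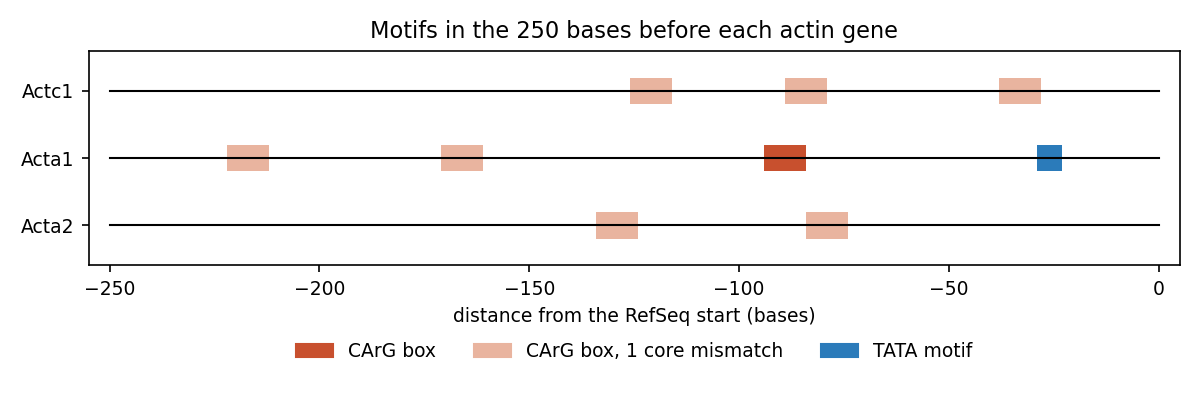
Motif matches in the 250 bases before each actin gene, plotted by distance from the RefSeq start in bases. Dark red bars are intact CArG boxes, pale bars are boxes with 1 C or G in the core, and the blue bar is the exact TATAAA match. Acta1 has 1 intact box at -94 to -85, and Actc1 and Acta2 have the altered form alone.

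Cardiac alpha actin is the defining marker of heart muscle among the 3, and it was among the most heavily counted genes in every library. Actc1 ranked between place 8 and place 14 by counts in the 18 libraries, Acta1 between 30 and 48, and Acta2 between 619 and 4566. These places are by read counts and not per transcript length. Actc1 took 0.918% to 1.44% of a library's counts, Acta1 0.151% to 0.262% and Acta2 0.00248% to 0.0188%. Counts ran from 422058 to 1220894 for Actc1, from 80136 to 213207 for Acta1 and from 1101 to 12657 for Acta2. Counting error alone was at most 3.01% of a value for Acta2 and below that for the other two, far less than the spread between hearts.

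None of the 3 actins differed between exposed and vehicle hearts, or between the doses, beyond the spread between hearts. For the cardiac and for the skeletal isoform the 3 group means lay close together, and the smooth muscle isoform was too variable for a narrow estimate. In the vehicle hearts Actc1 lay between 8119 and 14267 CPM with a median of 11197, where CPM is the count scaled to a common library size, with factors from the trimmed mean of M values (TMM). In the CBD3 hearts the lowest value was 10835, the median 12881 and the highest 14252 CPM. The 5 CBD30 hearts, given from replicate 1 to 5 here and for the other genes, had 11032, 15088, 13009.7, 11362 and 13047 CPM. The vehicle group reached lower than both exposed groups, with 3 of its 7 hearts below every heart of either dose, while the upper ends of all groups overlapped.

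Actc1 averaged 12708 ± 1619.6 CPM in CBD30 hearts (SD, n = 5) and 11213 ± 2476 CPM in vehicle hearts (n = 7). The log2 fold change was 0.18 ± 0.15 (SE), with a 95% interval of -0.13 to 0.49, and it did not pass (edgeR quasi-likelihood test, adjusted p = 0.537). CBD3 hearts averaged 12636 ± 1259 CPM (n = 6), and the log2 fold change over vehicle was 0.17 ± 0.14 (SE; interval -0.12 to 0.47; edgeR adjusted p = 0.624). Both comparisons use the same 7 vehicle hearts. Between the doses the log2 fold change of CBD30 over CBD3 was 0.01 ± 0.15 (SE; interval -0.32 to 0.33; edgeR adjusted p = 0.999), and its sign changed with the scaling (-0.01 with library size only). As folds, the intervals against vehicle ran from 0.913 to 1.41 for CBD30 and from 0.917 to 1.38 for CBD3.

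**Figure D2:**
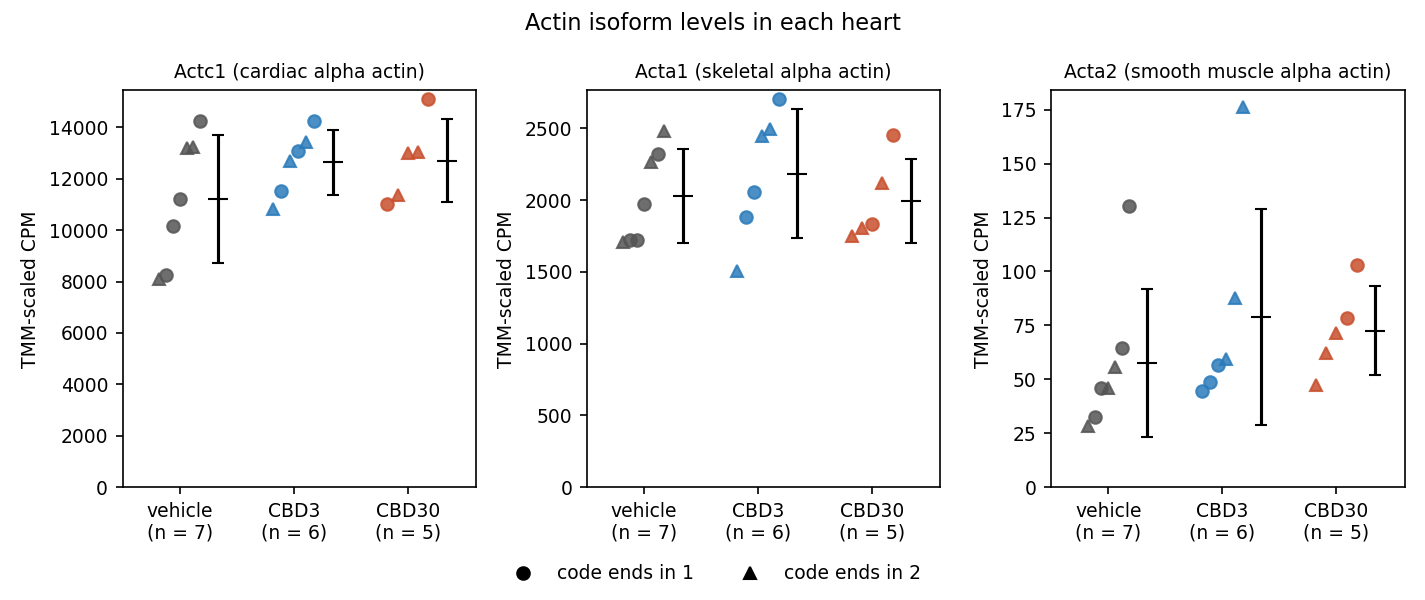
TMM-scaled CPM of Actc1, Acta1 and Acta2 (vertical axes, from 0) in each of the 18 hearts by group; points are hearts, shaped by the last digit of the sample code, and bars are mean and SD. The groups overlap for each gene, and Acta2 has 1 high heart in CBD3 (176 CPM) and 1 in the vehicle group (130.3 CPM).

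For skeletal alpha actin the vehicle hearts ran from 1712 to 2485 CPM with a median of 1976. CBD3 hearts ran from 1504 to 2705 CPM with a median of 2255. The CBD30 hearts had 2452, 1836, 2118, 1806 and 1751 CPM. The lowest and the highest hearts of the whole series were both CBD3 hearts, and the CBD30 and vehicle ranges overlapped almost entirely.

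Acta1 averaged 1993 ± 294 CPM in CBD30 hearts (SD, n = 5) and 2029.6 ± 328 CPM in vehicle hearts (n = 7). The log2 fold change was -0.03 ± 0.15 (SE; 95% interval -0.33 to 0.28; edgeR adjusted p = 0.939). For CBD3 it averaged 2184 ± 449 CPM (n = 6), a log2 fold change over vehicle of 0.11 ± 0.14 (SE; interval -0.19 to 0.40; edgeR adjusted p = 0.757). CBD30 over CBD3 gave -0.13 ± 0.15 (SE; interval -0.45 to 0.19; edgeR adjusted p = 0.999). The interval for CBD30 over vehicle ran from 0.793-fold to 1.22-fold. The order of the group means was CBD30, vehicle and CBD3 from low to high, and no difference between neighbours in that order passed its test.

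Smooth muscle alpha actin varied far more from heart to heart. Vehicle hearts ran from 28.3 to 130.3 CPM with a median of 46.1. CBD3 hearts ran from 44.7 to 176 CPM with a median of 58.1. The CBD30 hearts had 78.3, 103, 47.4, 71.5 and 62.4 CPM. CBD3 replicate 6 and a single vehicle heart (coded 1.1, since its replicate number could not be assigned) stood well above the rest of their groups. All 5 CBD30 hearts and 5 of 6 CBD3 hearts lay above the vehicle median, and the ranges overlapped.

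The highest Acta2 value was 6.24 times the lowest, against 1.86 times for Actc1 and 1.80 times for Acta1. The SD of log2 CPM within groups was 0.66 for Acta2, above that of 98.2% of the 8483 genes averaging 10 CPM or more, whose median SD was 0.21. It was 0.24 for Actc1 and 0.26 for Acta1, above 63.4% and 67.5% of those genes. Markers of smooth muscle, vessel or fibroblast cells were not analysed here, because the table names genes by ID only, and their part in the spread of Acta2 was not tested.

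Acta2 averaged 72.5 ± 20.6 CPM in CBD30 hearts (SD, n = 5) and 57.6 ± 34.4 CPM in vehicle hearts (n = 7). The log2 fold change was 0.33 ± 0.36 (SE; 95% interval -0.43 to 1.09; edgeR adjusted p = 0.642). CBD3 hearts averaged 78.9 ± 50.0 CPM (n = 6), a log2 fold change over vehicle of 0.45 ± 0.34 (SE; interval -0.27 to 1.17; edgeR adjusted p = 0.603). CBD30 over CBD3 gave -0.12 ± 0.38 (SE; interval -0.91 to 0.66; edgeR adjusted p = 0.999). The intervals against vehicle ran from 0.745-fold to 2.12-fold for CBD30 and from 0.83-fold to 2.25-fold for CBD3, so that a 2-fold difference lay inside the interval for either dose.

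The estimates for Acta2 moved with single hearts. CBD30 over vehicle was 0.17 without CBD30 replicate 2, 0.21 without vehicle replicate 5 and 0.67 without the vehicle heart coded 1.1 (edgeR unadjusted p = 0.0458, adjusted p = 0.409). The vehicle heart coded 1.1 and CBD3 replicate 6 were left out together for their high Acta2, an alternative chosen after the data were seen. Leaving out hearts by the value under test narrows the spread, so the p-values of this fit are no test of Acta2. CBD30 over vehicle was then 0.67 ± 0.22 (log2, SE; edgeR unadjusted p = 0.00799, adjusted p = 0.282). CBD3 over vehicle was then 0.38 ± 0.22 (edgeR adjusted p = 0.954), and CBD30 over CBD3 turned to 0.29 ± 0.23 (edgeR adjusted p = 0.9999). Without the vehicle heart coded 1.1 alone, CBD3 over vehicle was 0.79 (edgeR unadjusted p = 0.0168, adjusted p = 0.808). Without CBD3 replicate 6 alone it was 0.04, the lowest of the 18 fits that each left out 1 heart.

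**Figure D3:**
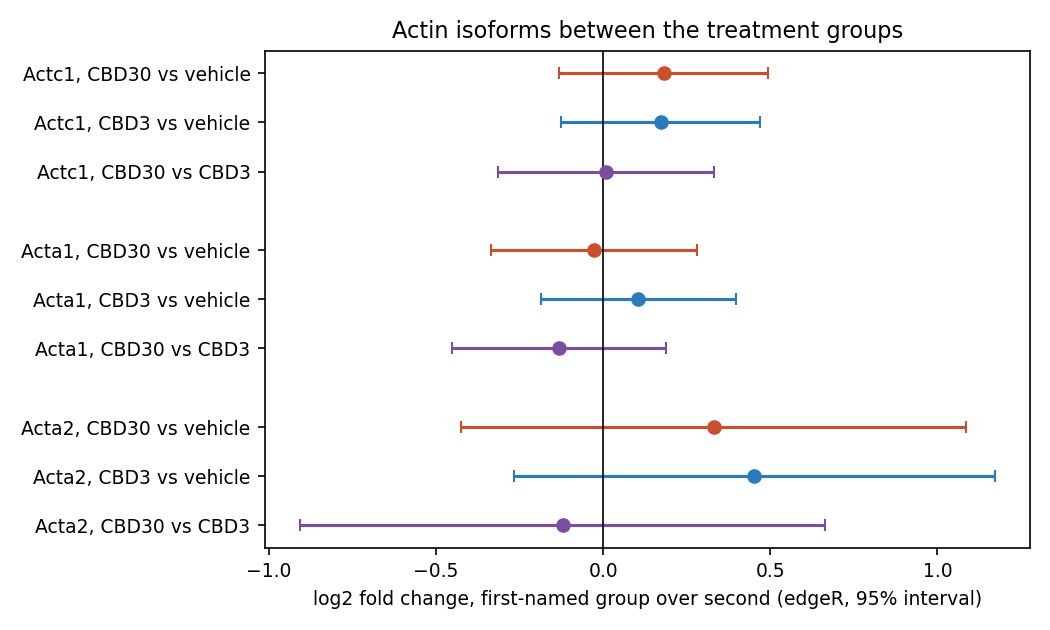
Log2 fold changes of the 3 actins (horizontal axis, first-named group over second) with 95% intervals from the edgeR fit of all 18 hearts. Every interval spans 0, and those of Acta2 are the widest, for example -0.43 to 1.09 for CBD30 over vehicle.

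With edgeR none of the 3 genes was called in any comparison at an adjusted p of 0.05, and 0 of 17009 genes (0%) was called for CBD30 over vehicle, CBD3 over vehicle or CBD30 over CBD3. At an unadjusted p of 0.05 the actins again gave 0 of 3 in each. The share of all tested genes under that value was 16.4% for CBD30 over vehicle, 8.92% for CBD3 over vehicle and 1.73% for CBD30 over CBD3. The median absolute log2 fold change over all tested genes was 0.18, 0.15 and 0.09 in that order of comparisons. DESeq2 and limma voom also called 0 of 3 actins in each. DESeq2 called 133 of the 24347 genes to which it gave a p (0.546%) for CBD30 over vehicle, 19 (0.078%) for CBD3 over vehicle and 1 (0.00411%) for CBD30 over CBD3. Limma voom called 0 of 17009 genes (0%) in each.

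Sample codes end in 1 or 2, a digit that no label explains and that divides vehicle hearts 4 and 3, CBD3 hearts 3 and 3, and CBD30 hearts 2 and 3. Library totals were 63672078 to 89240727 counts in hearts ending in 1 and 44127009 to 67302419 counts in those ending in 2. Within the hearts ending in 1, the log2 fold change of Actc1 for CBD30 over vehicle was 0.27 (edgeR adjusted p = 0.494), and within those ending in 2 it was 0.11 (edgeR adjusted p = 0.998). For CBD3 over vehicle the Actc1 values were 0.24 and 0.10. Acta1 differed in sign for CBD30 over vehicle, at 0.16 in the first set and -0.19 in the second. Acta2 was similar in both sets for CBD30 over vehicle (0.43 and 0.48). For CBD3 over vehicle Acta2 was -0.44 in the hearts ending in 1, which hold the far vehicle heart, and 1.31 in those ending in 2, which hold the far CBD3 heart. These Acta2 values had edgeR unadjusted p = 0.272 and 0.00476, and adjusted p = 0.540 and 0.9999. For CBD30 over CBD3 Acta2 was 0.87 in the hearts ending in 1 (edgeR unadjusted p = 0.0793, adjusted p = 0.9993). It was -0.83 in those ending in 2 (edgeR unadjusted p = 0.0438, adjusted p = 0.9995). The difference between the sets was not tested.

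The balance of the isoforms within a heart needs no scaling between libraries. Of the counts of the 3 actins together, Actc1 took 80.9% to 88.8%, Acta1 10.5% to 18.7% and Acta2 0.182% to 1.29% over all hearts. Actc1 had 4.34 to 8.43 times the counts of Acta1 in the same heart. These are shares of read counts, not of molecules, since transcript lengths were not used.

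The Acta1 share in vehicle hearts ran from 13.3% to 17.3% with a median of 15.7%, and in CBD3 hearts from 10.5% to 18.7% with a median of 15.2%. The CBD30 hearts had 18.1%, 10.8%, 14.0%, 13.6% and 11.8%. All but replicate 1 lay below the vehicle median, and 2 lay below every vehicle heart, while replicate 1 lay above every vehicle heart. The mean was 13.6% ± 2.8 in CBD30 hearts (SD, n = 5) and 15.4% ± 1.53 in vehicle hearts (n = 7), a difference of -1.8 percentage points (exact two-sided permutation p = 0.184, Benjamini-Hochberg adjusted p = 0.825 over 12 comparisons of isoform balance).

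CBD3 hearts averaged 14.7% ± 3.11 for the Acta1 share (SD, n = 6), a difference of -0.736 points from vehicle (exact permutation p = 0.582, adjusted p = 0.825). It was -1.52 points without CBD3 replicate 4 and turned to 0.0990 points without CBD3 replicate 5. CBD30 differed from CBD3 by -1.06 points (exact permutation p = 0.537, adjusted p = 0.825). The comparison of CBD30 with vehicle moved with single hearts. The difference was -2.91 points without CBD30 replicate 1 (exact permutation p = 0.0303, adjusted p = 0.121) and -1.08 points without CBD30 replicate 2 (exact permutation p = 0.412, adjusted p = 0.876), the ends of the range over the 12 hearts left out in turn. The Actc1 share mirrored this, at 85.9% ± 2.82 in CBD30 hearts and 84.1% ± 1.79 in vehicle hearts (difference 1.79 points, exact permutation p = 0.210, adjusted p = 0.825, n = 5 and 7).

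As a log2 ratio of Acta1 to Actc1 counts, the balance averaged -2.68 ± 0.33 in CBD30 hearts (SD, n = 5) and -2.45 ± 0.18 in vehicle hearts (n = 7). The difference of -0.23 did not pass its test (exact two-sided permutation p = 0.154, adjusted p = 0.825). It was -0.35 without CBD30 replicate 1 (exact permutation p = 0.0242, adjusted p = 0.121) and -0.13 without CBD30 replicate 2 (exact permutation p = 0.352, adjusted p = 0.876). CBD3 hearts averaged -2.55 ± 0.37 (n = 6), a difference of -0.10 from vehicle (exact permutation p = 0.515, adjusted p = 0.825). The ratio of CBD30 over CBD3 hearts differed by -0.12 (exact permutation p = 0.550, adjusted p = 0.825). The CBD30 difference from vehicle was -0.12 in the hearts whose code ends in 1 and -0.32 in those ending in 2. In the second set all 3 CBD30 hearts lay below all 3 vehicle hearts, and the exact two-sided permutation p was 0.1 (adjusted p = 0.4), the smallest that 3 hearts against 3 can give.

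**Figure D4:**
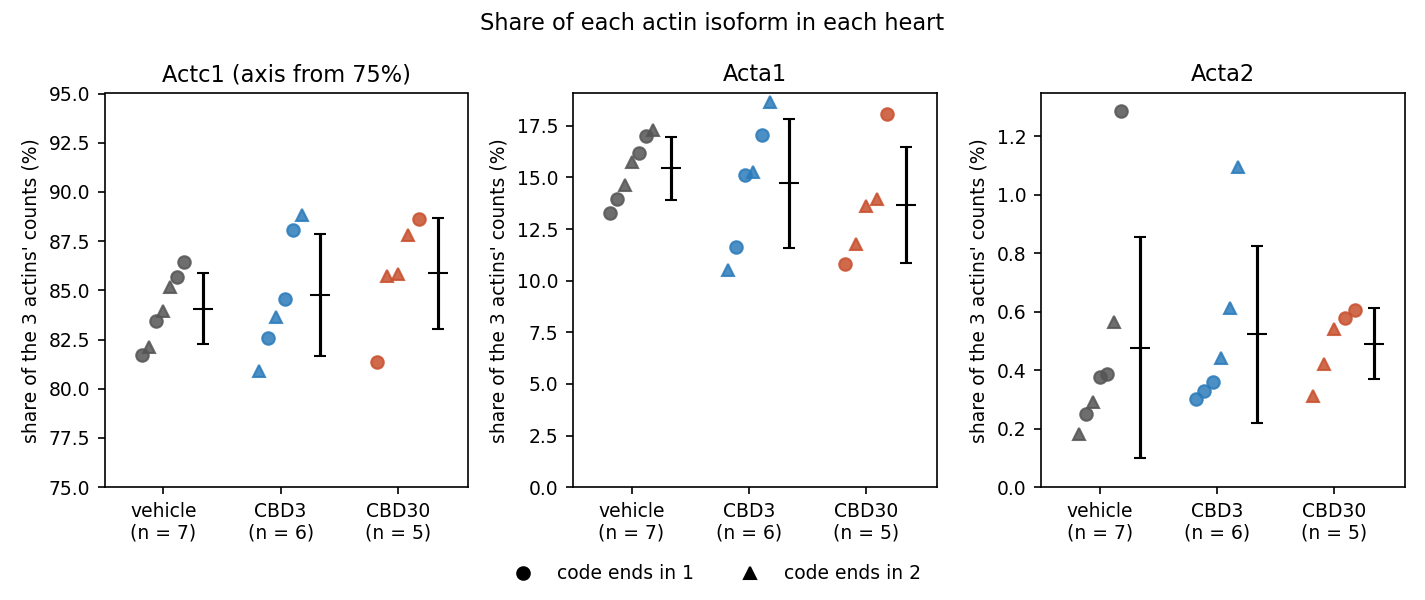
Share of each isoform in the summed counts of the 3 actins (vertical axes in percent; the Actc1 axis does not start at 0) in each heart by group, with mean and SD as bars and point shape by the last digit of the code. The CBD30 mean of Acta1 (13.6%) lies below the vehicle mean (15.4%), with 1 CBD30 heart at 18.1%.

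Acta2 shares were small in all groups. Vehicle hearts ran from 0.182% to 1.29% with a median of 0.376%, and CBD3 hearts from 0.301% to 1.097% with a median of 0.401%. The CBD30 hearts had 0.577%, 0.605%, 0.313%, 0.540% and 0.420%. CBD30 and vehicle hearts averaged 0.491% ± 0.122 (SD, n = 5) and 0.477% ± 0.378 (n = 7), with overlapping ranges (difference 0.0135 points, exact permutation p = 0.866, adjusted p = 0.913). The CBD3 mean of 0.523% ± 0.303 (n = 6) differed from vehicle by 0.0461 points (exact permutation p = 0.777, adjusted p = 0.913). CBD30 differed from CBD3 by -0.0326 points (exact permutation p = 0.913, adjusted p = 0.913).

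Whether the isoforms moved together from heart to heart was measured on log2 CPM over all 18 hearts. Actc1 and Acta1 had Pearson's r = 0.302 (permutation p = 0.224, adjusted p = 0.672 over 3 pairs) and Spearman's rho = 0.319 (permutation p = 0.196, adjusted p = 0.588). Without the 2 hearts farthest from the median of Actc1, r was 0.0161. Leaving out the extremes of a correlated gene narrows its range and tends to lower r. The drop therefore cannot show whether the relation rested on those hearts. Within the hearts ending in 1 and in 2, r was 0.299 and 0.315 (n = 9 each).

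Actc1 and Acta2 had r = -0.0497 (permutation p = 0.827, adjusted p = 0.827) and rho = 0.098 (permutation p = 0.700, adjusted p = 0.700). Leaving out the 2 hearts farthest in Actc1 gave r = 0.261, and the sets ending in 1 and 2 gave -0.172 and 0.0740. Acta1 and Acta2 had r = -0.0730 (permutation p = 0.780, adjusted p = 0.827) and rho = -0.123 (permutation p = 0.631, adjusted p = 0.700), with r = 0.0319 without the 2 hearts farthest in Acta1 and -0.0391 and -0.0975 in the 2 sets. No pair had a correlation that passed its test in these hearts.

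**Figure D5:**
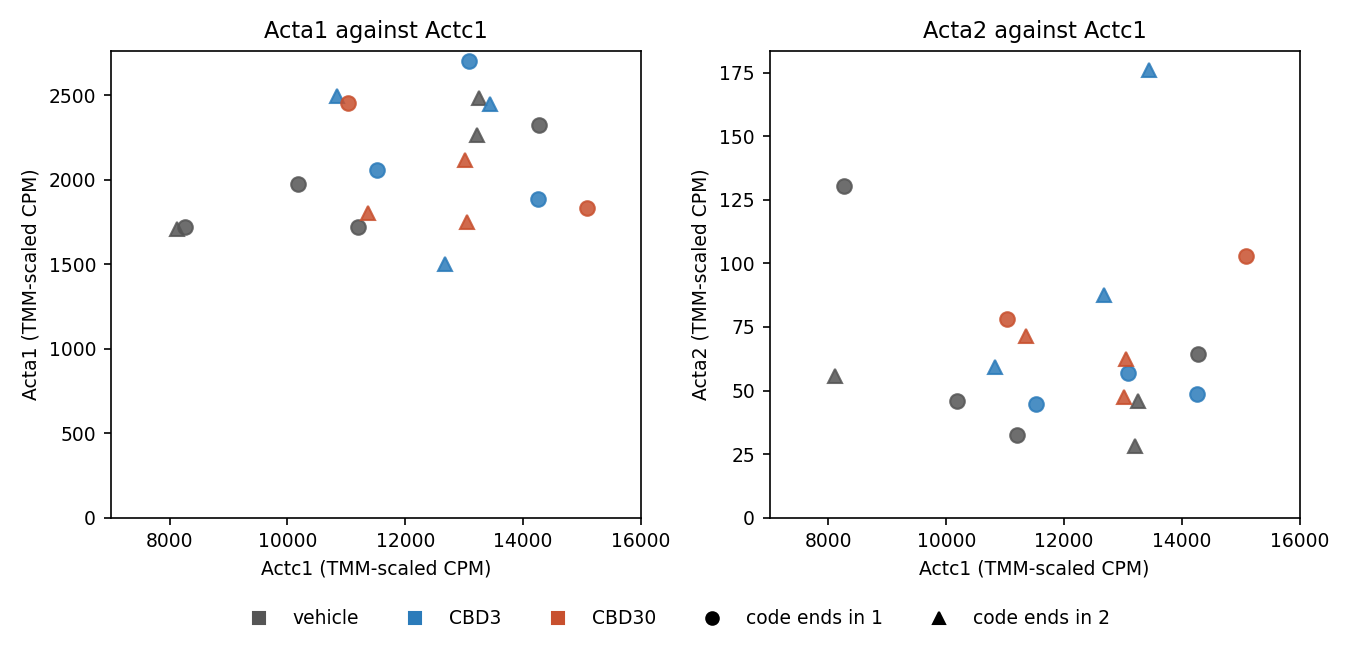
Acta1 (left) and Acta2 (right) against Actc1 in the 18 hearts, in TMM-scaled CPM; colours are groups and shapes the last digit of the code, and the horizontal axis does not start at 0. Neither panel shows a clear line (r = 0.302 and -0.0497 on log2 CPM), and the vehicle heart at 130.3 CPM of Acta2 is among the lowest in Actc1.

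The genes most like each actin were sought among 8480 others averaging 10 CPM or more, by Pearson's r of log2 CPM over the 18 hearts. For Actc1 these were ENSRNOG00000003328 (r = 0.932) and ENSRNOG00000018425 (r = 0.912), and 2.63% of the genes searched had r above 0.8 with it. For Acta1 the highest were ENSRNOG00000009630 (r = 0.774) and ENSRNOG00000026994 (r = 0.735), and none reached 0.8. For Acta2 they were ENSRNOG00000009867 (r = 0.844) and ENSRNOG00000005935 (r = 0.833), with 0.0708% of genes above 0.8. In the 2 hearts highest in Acta2, CBD3 replicate 6 and vehicle coded 1.1, ENSRNOG00000009867 ranked 1 and 2 of 18 (40.0 and 34.9 CPM, median 26.9). ENSRNOG00000005935 ranked 3 and 1 there (14.0 and 14.7 CPM, median 12.4). The weight of those hearts in r was not tested. The median r over the genes searched was 0.142 for Actc1, 0.114 for Acta1 and -0.0479 for Acta2. The points share library and depth, the genes were picked for their r, and the sources used here do not name these IDs.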

How the data were processed

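The authors deposited a table of whole-number counts per Ensembl gene. Per the submitters' processing notes, featureCounts, edgeR and the build mRatBN7.2 were used. Per the labels' protocols, total RNA of frozen hearts was taken up in phenol, and stranded libraries were made from enriched messenger RNA. The sources used here do not give the aligner, the annotation release, the counting settings or any adjustment of the counts before deposit.

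All 18 hearts entered 1 fit. Genes passed filterByExpr (by group, with a minimum count of 10 and a total of 15) and were scaled by TMM. The test was the quasi-likelihood test in edgeR (version 4.0.16, R 4.3.3), with Benjamini-Hochberg adjustment over 17009 genes and a threshold of 0.05. SEs were derived from the F statistic. Log2 CPM used a prior count of 2. Shares and ratios, computed on the counts as deposited, were compared with exact two-sided permutation tests, and correlations with 100000 permutations (SciPy 1.17.1). Alternatives included DESeq2 1.42.0 and limma 3.58.1.

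For 14 columns the labels give a replicate number. The remaining 4 are vehicle hearts, named by code, since each code stands in the labels of 2 samples. Separate animals are taken from the labels, and littermates that resemble each other would make p-values too small. Of 46 pairs of libraries within groups, none agreed within sampling noise (lowest chi-square per degree of freedom 34.4).

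The 3 actins and all gene lists were chosen with earlier results of these data known. The RefSeq table (GRCr8, 47357 genes) holds 0 Ensembl IDs, so 14 lists of 114 symbols for cell types and actin-related genes were not analysed. Named beside the actins are the 2 genes most correlated with each.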

Additional observations from a re-analysis of the deposited data

Results flagged for a closer look

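Of 21 sets of 5 to 7 hearts, 3 held a heart far from the others, by the gap to the nearest heart over the range. The sets were the level of each actin, its share and the Acta1 to Actc1 ratio, by group. This rule flags about 1 in 20 sets of normally distributed values. Whether these values are so distributed was not tested, and the sets overlap. Acta2 was at 176 CPM in CBD3 replicate 6, against 87.5 CPM in the nearest CBD3 heart. It was at 130.3 CPM in the vehicle heart coded 1.1, against 64.3 CPM in the nearest vehicle heart. That vehicle heart was also far out in its Acta2 share, at 1.29% against 0.565% in the nearest. The level and the share are 2 views of 1 heart and 1 gene. On the log2 scale, an alternative chosen after the data were seen, 0 of the 21 sets held a heart that far out.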

How the results depend on the processing

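None of 471 alternative values for 21 actin results passed an adjusted p of 0.05 (lowest 0.121), and 43 changed sign. These values are not independent, and the count does not measure how firm the results are. Fits of 1 code digit hold 2 to 4 hearts a group, too few for their share and ratio tests to pass that threshold. Leaving out a heart of the group not compared barely moved a log2 fold change. The Actc1 share, the Acta1 share and the ratio are nearly the same measure. The cause of a change of sign was not tested. Log2 fold changes of Acta1 turned to 0.16 for CBD30 over vehicle in hearts ending in 1, and for CBD3 over vehicle to -0.0031 in hearts ending in 2 and -0.0081 with a replicate block. Acta2 for CBD3 over vehicle turned to -0.44 in hearts ending in 1. For CBD30 over CBD3, Actc1 turned to -0.012 with library size only and -0.020 with the replicate block. Acta2 turned there to 0.011 with limma voom, 0.27 with the replicate block, 0.87 in hearts ending in 1 and 0.29 without the 2 hearts highest in Acta2.

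As a share of all library counts, Acta1 turned to 0.0124 points for CBD3 over vehicle and Actc1 to -0.0107 points for CBD30 over CBD3. In hearts ending in 1, the Acta2 share turned to -0.246 points for CBD3 over vehicle, and for CBD30 over CBD3 the Actc1 share to -0.0861 and the Acta2 share to 0.262. The Acta2 share between the doses was 0.139 by medians and 0.0821 without the 2 far hearts.

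Leaving out 1 heart at a time gave log2 fold changes of -0.11 to 0.028 for Acta1 (CBD30 over vehicle), -0.061 to 0.055 for Actc1 and -0.28 to 0.29 for Acta2 (both CBD30 over CBD3). Share differences for CBD3 over vehicle ran from -0.127 to 1.46 points for Actc1, -1.52 to 0.0990 for Acta1 and -0.0686 to 0.181 for Acta2, and the log2 ratio from -0.19 to 0.00036. The Acta2 share ran from -0.0356 to 0.149 for CBD30 over vehicle and from -0.0770 to 0.0821 between the doses.

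The replicate block used the 14 numbered columns. Deviations of 8 same-numbered pairs correlated at -0.196 to 0.308, 2 of them over 0.1, so the numbers were not taken to pair the hearts. The fit with the replicate block lacks the 4 unnumbered vehicle hearts. Acta2 was 1.73 for CBD30 over vehicle in that fit (edgeR unadjusted p = 0.000485, adjusted p = 0.164). It was 1.47 for CBD3 over vehicle (edgeR unadjusted p = 0.000763, adjusted p = 0.251). Only vehicle replicates 5 and 6 share a number with an exposed heart, so they carry the vehicle side of that fit. Acta2 was 28.3 CPM in vehicle replicate 5, 87.5 in CBD3 replicate 5 and 62.4 in CBD30 replicate 5. It was 55.9 CPM in vehicle replicate 6 and 176 in CBD3 replicate 6. The cause of the larger values was not tested. Genes called for CBD30 over vehicle were 0 with edgeR, 133 with DESeq2, 267 without the vehicle heart coded 3.1 and 1 without CBD30 replicate 1. DESeq2 called 19 for CBD3 and 1 between doses, and edgeR 1 between doses with only those groups.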
